A study of Mus musculus with 75 samples.

Results

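Gastrocnemius muscle of tumour-bearing mice that received cisplatin was compared with gastrocnemius of tumour-bearing mice that received saline, by RNA sequencing across 13856 genes. The 29 libraries were chosen by their titles, out of 73 with a group and 74 with a column in the deposited table: 14 cisplatin libraries (6 female, 8 male) and 15 saline libraries (7 female, 8 male). All 29 mice were BALB/c and carried C26 tumours, a mouse colon carcinoma line, after bilateral injection of 1000000 cells. The cisplatin mice received 75% of the maximum tolerated dose in 2 cycles of 2 injections per week from day 12, and the saline mice received the vehicle alone. The last comparison sets cisplatin against 2 other drugs given to C26 mice on the same schedule and at the same share of the tolerated dose: 5-fluorouracil in 16 mice (8 female, 8 male) and paclitaxel in 13 (7 female, 6 male). A further 15 mice without tumours, 7 female and 8 male, received PBS in place of cells and saline in place of drug, and are given as levels only, with no test. Muscle was taken at day 25, age in weeks was not given, and 1 library whose labels conflict was left out. The comparison asks what differs in muscle when a tumour host is given cisplatin. Tumour size, body weight and muscle weight were not analysed here.

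The C26 tumour is widely used to study cancer cachexia, the loss of muscle and fat in a tumour host. It is known to raise circulating interleukin-6, which signals through its receptor and the transcription factor STAT3 and induces acute-phase genes, including serum amyloid A and lipopolysaccharide-binding protein, in liver and in muscle. Wasting muscle is known for the ubiquitin ligases atrogin-1 (Fbxo32) and MuRF1 (Trim63), for FoxO-driven genes, for proteasome and autophagy genes, and for metallothioneins, small zinc-binding proteins. Cisplatin forms platinum adducts on DNA, which activate p53 and its targets in dividing cells, and is itself bound by metallothioneins and glutathione.

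The promoters of the 2 metallothionein genes and of Socs3 are shown for 2 reasons. These genes were among the 12 with the most negative differences at a mean log2 value of 1 or more, predicted gene models aside. Their promoters also hold the motif named for the group they were listed in. Each runs from 250 bases before to 50 bases after the transcription start, 5′ to 3′ on the gene's strand, from RefSeq on GRCm38.p6. In the first pair the capitals mark each match, on either strand, to TGCNCNC, a loosened form of the metal response element core. The core has A or G at the first N, which the Mt2 stretches GGGAGCA (on the other strand) and TGCTCTC lack. Matches to the loosened form are called metal response matches below. In the last sequence the capitals mark the single match to TTCNNNGAA, the spacing bound by STAT proteins. Mt2 lies at chr8:94172368-94172667 on the plus strand, Mt1 at chr8:94178839-94179138 on the plus strand and Socs3 at chr11:117969317-117969616 on the minus strand.
Mt2: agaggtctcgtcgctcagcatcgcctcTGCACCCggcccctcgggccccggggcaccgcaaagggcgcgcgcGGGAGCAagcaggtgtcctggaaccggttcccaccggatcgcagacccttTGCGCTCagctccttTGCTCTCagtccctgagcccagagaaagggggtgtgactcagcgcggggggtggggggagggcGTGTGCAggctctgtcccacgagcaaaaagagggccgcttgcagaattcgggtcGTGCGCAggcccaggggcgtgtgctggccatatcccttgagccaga
Mt1: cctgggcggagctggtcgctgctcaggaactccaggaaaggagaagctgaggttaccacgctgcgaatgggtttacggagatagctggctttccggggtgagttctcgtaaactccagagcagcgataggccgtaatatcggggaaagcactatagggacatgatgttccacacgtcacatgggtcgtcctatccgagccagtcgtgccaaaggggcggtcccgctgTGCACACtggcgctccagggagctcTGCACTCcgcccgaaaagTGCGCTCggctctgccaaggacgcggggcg
Socs3: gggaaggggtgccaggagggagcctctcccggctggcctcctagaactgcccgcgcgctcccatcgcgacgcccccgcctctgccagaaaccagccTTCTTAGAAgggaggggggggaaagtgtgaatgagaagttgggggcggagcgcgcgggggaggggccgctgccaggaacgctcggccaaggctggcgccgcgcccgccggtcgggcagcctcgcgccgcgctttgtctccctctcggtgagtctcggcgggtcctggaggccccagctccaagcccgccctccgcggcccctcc
The Mt2 promoter held 6 metal response matches, a number reached by 0.225% of 32851 mouse promoters of the same length, and the Mt1 promoter held 3, reached or passed by 7.10%. Of the 12 genes with the most negative differences 9 were in the promoter table, and 6 of these held at least 1 metal response match, against 51.0% of all promoters. Of the 12 with the most positive differences only 4 were in the table, and 3 held at least 1: Mybph and Tfrc held 3 each, as many as Mt1, and Nmrk2 held 2. The STAT spacing was in 1 of the 9 and in 0 of the 4, against 8.30% of all promoters. A match describes the letters and not binding.

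The 29 libraries held 11389000 to 40465000 estimated counts each, as recovered from the values. Values are given on the deposited log2 scale, where 1 unit is a 2-fold difference, and a difference is cisplatin minus saline with sex as a block, tested with limma and Benjamini-Hochberg adjustment over all 13856 genes at 0.05. The muscle gene Casq1 was at 8.56 or above in every library compared. Libraries differed in how strongly a gene's level followed its GC content: male cisplatin replicates 4 and 8 (slopes 0.55 and 0.17) and female saline replicate 7 (0.45) stood above a limit of 0.1. The 13 mitochondrially encoded genes took 10.3% ± 4.23 of counts in cisplatin libraries and 8.33% ± 3.53 in saline libraries (SD, n = 14 and 15), a difference of 2.10 percentage points (p = 0.151, permutation test within sex, two-sided; p = 0.0248 without the libraries of high GC slope). The labels number the replicates without naming the animals, so each p-value rests on the spread between libraries, which may be partly technical.

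With the sexes pooled, 2142 genes, 15.5% of those tested, passed the test: 897 (6.47%) were higher and 1245 (8.99%) were lower under cisplatin. The median difference over all genes was -0.01. Without the 3 libraries of high GC slope 3540 genes passed, among them 2094 of the 2142. Differences beyond 1 log2 unit were fewer, with 117 genes higher and 204 lower. Every cisplatin library lay above every saline library in 0 genes (0%) and below every saline library in 2 (0.0144%). The 2 genes were Itih4, an acute-phase inhibitor heavy chain, and Saa3, a serum amyloid A, both named here after their values were seen. Itih4 had a lowest, median and highest value of -3.87, -1.93 and -0.81 in cisplatin libraries, against -0.80, -0.08 and 1.05 in saline libraries. Its difference was -1.98 (SE 0.27, adjusted p = 1.81e-05). Within each sex taken alone, 10 genes (0.0722%) had every cisplatin library below every saline library in both sexes, among them Lcn2, Saa1, Slc39a14, Tmem252 and Cxcr2. A single gene (0.00722%), Ephx1, had every cisplatin library above every saline library in both sexes.

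Among genes that passed at a mean log2 value of 1 or more, predicted gene models aside, the metallothionein Mt2 had the most negative difference. Of 15 measured members of the metallothionein and zinc transporter list, 0 rose and 3 fell, with a list median of -0.09, so the falls concerned single members rather than the list. Mt2 was 2.25, 4.33 and 6.18 at its lowest, median and highest in cisplatin libraries, against 5.00, 8.18 and 9.56 in saline libraries. In 11 of 14 cisplatin libraries it lay below every saline library, and PBS libraries averaged 2.88. The difference was -3.79 (SE 0.38, adjusted p = 2.26e-07). Mt1 averaged 5.09 under cisplatin, 8.26 under saline and 4.31 in PBS mice, a difference of -3.20 (SE 0.35, adjusted p = 8.05e-07). The third member that fell, Slc39a14 (ZIP14), carries zinc and iron into cells and is known to rise in muscle of tumour hosts; its difference was -1.53 (SE 0.20, adjusted p = 1.05e-05). The 12 other members, zinc importers and exporters for the most part, did not pass the test.

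Acute-phase and interleukin-6 pathway genes were lower under cisplatin. Of 26 measured members, 18 fell and 0 rose, with a median of -1.30. These and all later counts are of whole muscle, in which fewer cells of a type and less RNA per cell cannot be told apart. Among the receptors, Il6ra fell by 1.64 and the shared subunit Il6st by 0.45. The transcription factor Stat3 ranged over 6.05, 6.32 and 7.06 (lowest, median, highest) under cisplatin, against 6.58, 7.68 and 8.08 under saline, with a PBS mean of 5.98. Its groups overlapped, with 9 of 14 cisplatin libraries under every saline library, and the difference was -1.11 (SE 0.14, adjusted p = 8.15e-06). Socs3, the feedback inhibitor of the pathway, averaged 1.98 under cisplatin and 4.46 under saline (difference -2.48, SE 0.45, adjusted p = 0.000481).

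Secreted acute-phase proteins, the targets of the pathway, fell as well. Serpina3n, a secreted protease inhibitor, was 3.43 ± 0.63 under cisplatin and 6.01 ± 0.87 under saline (SD, n = 14 and 15). Its lowest, median and highest values were 2.52, 3.29 and 4.74 under cisplatin, against 4.41, 6.23 and 7.51 under saline. Only 1 cisplatin library reached into the saline range, and PBS libraries averaged 1.61. Its difference was -2.60 (SE 0.25, adjusted p = 1.45e-07). Lbp, which carries bacterial lipopolysaccharide to CD14, showed the same separation, with 13 of 14 cisplatin libraries under every saline library. It averaged 3.56 ± 0.47 under cisplatin, 5.37 ± 0.51 under saline and 2.87 in PBS mice, a difference of -1.82 (SE 0.17, adjusted p = 1.45e-07). Lcn2, an iron-siderophore binding protein, fell by 3.41, and Saa1 fell by 3.51. Saa1 was at an estimated count of 0 in 4 of 14 cisplatin libraries, 0 of 15 saline libraries and 6 of 15 PBS libraries, and Saa3 in 8, 0 and 12, so their size depends on the 0.5 count the authors added. Saa1 and Saa2, and the Serpina3 genes, are close copies whose reads the authors' counting could split. Tmem252 and the stromelysin Mmp3 also fell, by 2.36 and 2.02, as did Prg4, which encodes the joint lubricant lubricin, by 1.96.

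**Figure D1:**
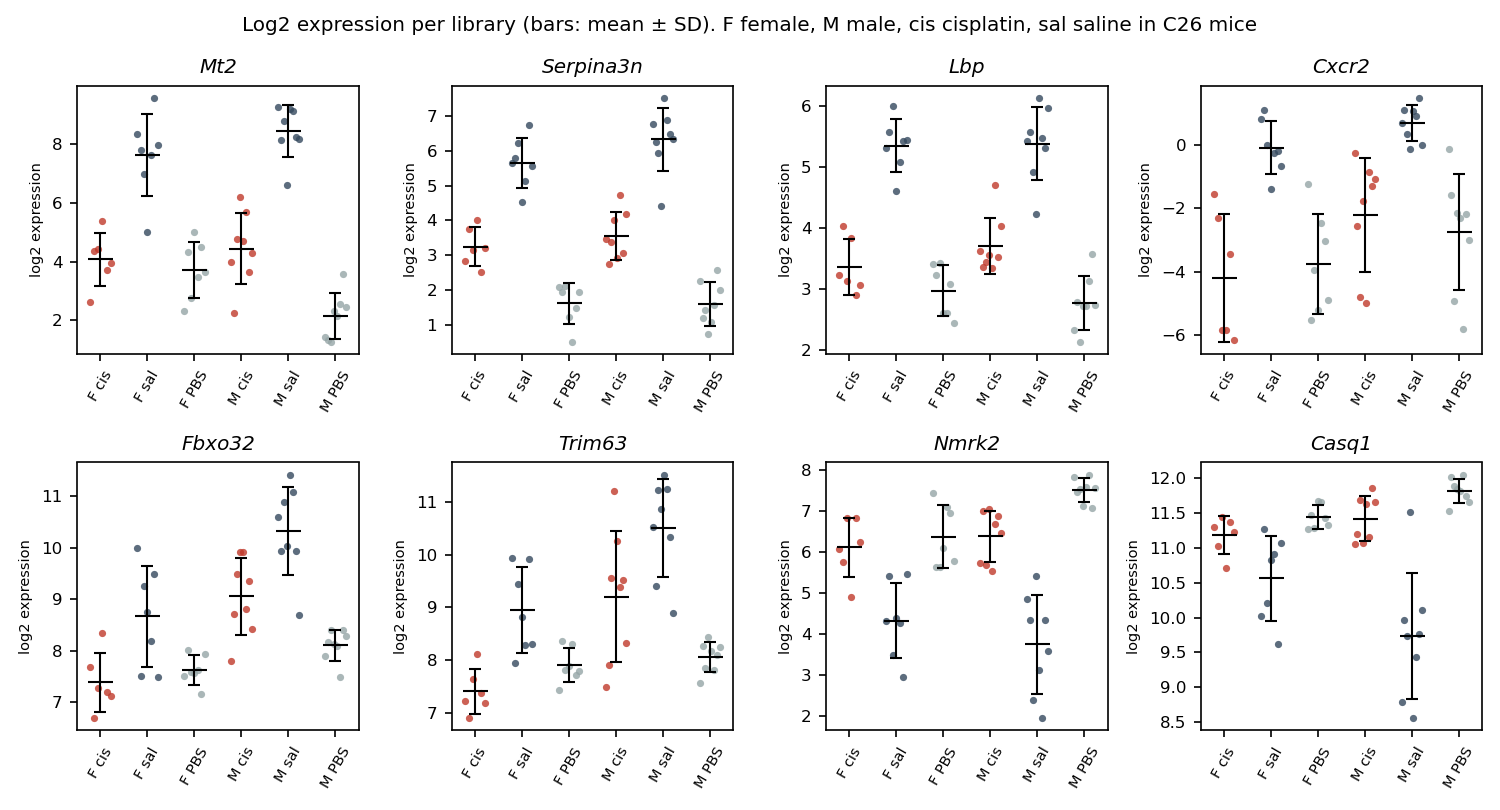
Log2 expression of Mt2, Serpina3n, Lbp, Cxcr2, Fbxo32, Trim63, Nmrk2 and Casq1 in each library, by sex and group (C26 with cisplatin, C26 with saline, PBS); dots are libraries and bars are mean ± SD. For Serpina3n and Lbp 13 of 14 cisplatin libraries lie under every saline library, and for Nmrk2 13 of 14 lie above, while Fbxo32 and Trim63 overlap between the groups.

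Markers of neutrophils were lower in the cisplatin muscles. Of 16 listed neutrophil markers only 10 were measured. All 10 measured markers fell, with a median of -2.05. Their summed level was 16.7 to 62.0 CPM (counts scaled to library size) under cisplatin (median 22.3). It was 31.0 to 106 under saline (median 70.3) and 10.6 to 28.2 in PBS mice (median 14.5). The list shares Lrg1 with the endothelial list. Cxcr2, the chemokine receptor that draws neutrophils into tissue, was -6.16, -2.44 and -0.24 at the lowest, median and highest under cisplatin, against -1.39, 0.36 and 1.49 under saline. It was at an estimated count of 0 in 5 cisplatin and 0 saline libraries, and its difference was -3.44 (SE 0.50, adjusted p = 4.07e-05). Il1r2, a decoy receptor for interleukin-1, fell by 1.62, and the gelatinase Mmp9 fell by 1.65. The part of these cells in the lower acute-phase values was not tested.

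Macrophage markers were lower by a smaller amount. Of 22 measured, 13 fell and 0 rose, with a median of -0.53, and their summed level was 119 to 238 CPM under cisplatin, 136 to 326 under saline and 84.4 to 167 in PBS mice. The members with the smallest adjusted p included the Fc receptor Fcgr3 (-0.78, adjusted p = 0.000647) and the complement gene C1qc (-0.76). Of 19 inflammation and NF-kB genes, 8 fell and 2 rose. The receptor Tnfrsf1a fell by 0.73, while Tnfaip3, which encodes the NF-kB inhibitor A20, rose by 1.02 (SE 0.18, adjusted p = 0.000441). Cxcl13, the B-cell chemokine, averaged lower by 2.89 (adjusted p = 4.07e-06).

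Some interferon-response genes and an immunoglobulin gene were higher under cisplatin. Of 41 interferon genes, 7 rose and 1 fell, with a median of 0.26, where 6.47% of all genes rose and 8.99% fell. In females alone 0 of the 41 rose and in males alone 8, with medians of 0.09 and 0.29. Over all genes 0.245% rose in females and 6.47% in males. Without the 3 libraries of high GC slope 9 rose and 4 fell. The guanylate-binding proteins Gbp3 and Gbp5 rose by 1.41 and 1.43 and Ifit2 by 0.65. Predicted gene models aside, Ighm (immunoglobulin M heavy chain) had the most positive difference of called genes at a mean log2 of 1 or more. Its difference was 2.33 (SE 0.45, adjusted p = 0.000828). It was 1.07, 3.06 and 5.88 at the lowest, median and highest under cisplatin, against -0.65, 0.74 and 3.91 under saline, with a PBS mean of 5.03. The groups overlapped widely with the sexes pooled. In males Ighm was 2.39 to 5.88 under cisplatin, against -0.35 to 3.91 under saline, with the next highest male saline library at 1.14. In females it was 1.07 to 3.45 under cisplatin, against -0.65 to 2.64 under saline. Ighm was the only one of 10 measured B-cell, plasma-cell and MHC class II genes to pass, a share under the 15.5% of all genes. In females alone 0 of the 10 passed and in males alone 2 rose, where 1.41% of all genes passed in females and 6.47% rose in males. Of 22 T-cell and natural killer genes 1 was measured, Zap70, which did not pass (-0.76).

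Genes of protein breakdown were lower under cisplatin, with exceptions among the ligases. Fbxo32 was 6.69, 8.38 and 9.92 at the lowest, median and highest under cisplatin, against 7.49, 9.93 and 11.42 under saline, with a PBS mean of 7.88. Trim63 was 6.89, 8.00 and 11.21 under cisplatin and 7.95, 9.92 and 11.53 under saline, with a PBS mean of 7.98. Both genes overlapped between the groups over much of their range. Fbxo32 fell by 1.28 (SE 0.28, adjusted p = 0.00210) and Trim63 by 1.41 (SE 0.32, adjusted p = 0.00301). In the whole list of 24 muscle ubiquitin ligases and atrophy genes 6 fell and 4 rose, with a median of -0.13. Fbxo31 fell by 0.94, while Trim55 (MuRF2), a sarcomere-bound relative of Trim63, rose by 0.53.

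FoxO and glucocorticoid targets fell in 9 of 25 cases and rose in 0, with a median of -0.48. They included Map1lc3b, the autophagosome protein LC3B (-0.87, SE 0.14, adjusted p = 8.36e-05), Sesn1 (-0.95), Gabarapl1 (-0.85) and Cebpd (-1.44). Foxo1 itself had an adjusted p of 0.0363 and lost the call when any 1 of 13 libraries was left out. Of 36 proteasome subunits 16 fell and 0 rose, by small amounts, with a median of -0.31; Psmb1 fell by 0.45, Psmc2 by 0.53 and Psma7 by 0.59. Of 39 autophagy and lysosome genes 14 fell and 0 rose, with a median of -0.15, among them the lysosomal proteases Ctsd (-0.65) and Ctsl (-0.98). Myostatin (Mstn), the secreted brake on muscle growth, had a difference of -0.34 and did not pass.

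Many calcium-handling genes were higher in the cisplatin muscles. Of 28 genes of calcium release, buffering and reuptake, 14 rose and 0 fell, with a median of 0.36. Casq1, the main calcium-binding protein of the sarcoplasmic reticulum in fast fibres, was 10.71, 11.26 and 11.86 at the lowest, median and highest under cisplatin, against 8.56, 10.03 and 11.51 under saline, with a PBS mean of 11.64. The groups overlapped, and 4 of 14 cisplatin libraries lay above every saline library. Casq1 rose by 1.21 (SE 0.23, adjusted p = 0.000698). Sypl2 (mitsugumin-29), a triad protein, rose by 1.05, the calcium buffer parvalbumin (Pvalb) by 0.80 and the store-operated calcium sensor Stim1 by 0.36. Of 20 fast-fibre genes 5 rose, 0 fell and 15 did not pass, with a median of 0.14. Among 18 slow-fibre genes 1 rose, Pln, which encodes the calcium pump inhibitor phospholamban (0.91), and 0 fell. This is a share under the 15.5% of all genes. The myosin heavy chains Myh4 (0.34) and Myh7 (0.47) did not pass.

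Contractile and metabolic genes gave smaller counts. Of 35 sarcomere and Z-disc genes 5 rose and 2 fell, with Myoz3 at 1.32 and the filamin Flnc at -0.88. The list median was -0.03, and the share that passed was not far above the 15.5% of all genes. Of 33 glycolysis and glycogen genes 7 rose and 2 fell, among them Pgm1 (0.78) and Eno1 (0.56). Of 36 fatty acid uptake and oxidation genes 6 fell and 0 rose, a share near the 15.5% of all genes. Of 23 adipocyte and lipid synthesis genes 7 rose and 0 fell, including the fatty acid synthase Fasn (1.18) and the desaturase Scd1 (1.74). In females alone 2 of the 23 rose and in males alone 1, with list medians of 0.37 and -0.08. Over all genes 0.245% rose in females and 6.47% in males. Of 76 nuclear-encoded and 13 mitochondrially encoded respiratory chain genes 0 passed, with medians of 0.06 and 0.32. Without the 3 libraries of high GC slope 3 of the 76 and 6 of the 13 rose, with medians of 0.04 and 0.52. Ppargc1a, the coactivator of mitochondrial biogenesis, had a difference of -0.38 and did not pass.

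Among the rises was that of Nmrk2, a muscle kinase that makes NAD from nicotinamide riboside. It was 4.90, 6.35 and 7.04 at the lowest, median and highest under cisplatin, against 1.94, 4.32 and 5.46 under saline, with a PBS mean of 6.97. In 13 of 14 cisplatin libraries it lay above every saline library. The difference was 2.25 (SE 0.32, adjusted p = 2.74e-05). In the list of 31 NAD, polyamine and nucleotide genes 7 rose and 7 fell, so the list as a whole had no single direction; Smox, spermine oxidase, rose by 1.13. Other large rises were in Tfrc, the transferrin receptor that takes up iron (2.22, SE 0.37, adjusted p = 0.000170), Mybph, a myosin-binding protein (2.27), Dusp29, a muscle phosphatase (2.12), Ostn, the muscle-secreted peptide musclin (1.92), and the water channel Aqp4 (1.74). Gdap1, Nrep and Mdga1 rose by 2.11, 2.00 and 1.95.

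DNA-damage genes passed in shares near or under that of all genes. Of 32 measured p53 targets and damage-response genes, 2 rose and 4 fell, with a median of -0.08, and of 26 excision and crosslink repair genes 1 rose (Polh, the translesion polymerase, 0.28) and 1 fell (Xpa, a damage-binding protein, -0.46). The 4 falls among the p53 and damage-response genes included Sesn1, given above with the FoxO targets, and Xpc. The call of Xpc was lost with the replicate block (-0.26, adjusted p = 0.0602). The 2 rises were Ccng1 and the checkpoint kinase Chek2 (0.72, adjusted p = 0.0190). Chek2 did not pass with all libraries of the series in the fit (0.74, adjusted p = 0.0821). Ccng1, the p53 target cyclin G1, was 8.22, 9.24 and 9.75 under cisplatin, against 7.86, 8.55 and 9.15 under saline (difference 0.54, adjusted p = 0.00822). Cdkn1a, the p53 target p21, averaged 5.72 under cisplatin, 6.41 under saline and 4.67 in PBS mice; its difference of -0.72 did not pass (adjusted p = 0.0897) and passed under 6 of the alternatives tried. Mdm2, the p53 target and inhibitor, had a difference of 0.08 (adjusted p = 0.654), and the stress cytokine Gdf15 of 0.84 (adjusted p = 0.199), which passed with GC slope in the model (0.93, adjusted p = 0.0415). Gdf15 was 2.35 in male cisplatin replicate 4 and no higher than -1.15 in any other cisplatin library.

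Ephx1, microsomal epoxide hydrolase, which detoxifies reactive epoxides, was in none of these lists and was the single gene higher in every cisplatin library of both sexes. In females it was 4.76, 4.98 and 5.23 at the lowest, median and highest under cisplatin, against 3.92, 4.13 and 4.37 under saline. In males it was 4.26, 4.60 and 4.99 under cisplatin, against 3.11, 3.60 and 4.18 under saline. The ranges did not overlap in either sex, and PBS libraries averaged 4.50. The pooled difference was 0.95 (SE 0.10, adjusted p = 5.82e-07). Of 18 genes of platinum transport and binding, the glutathione transferase Gsta4 rose by 0.65 and the copper transporter Slc31a2 fell by 0.36, and the other 16 did not pass, a share of calls under the 15.5% of all genes.

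**Figure D2:**
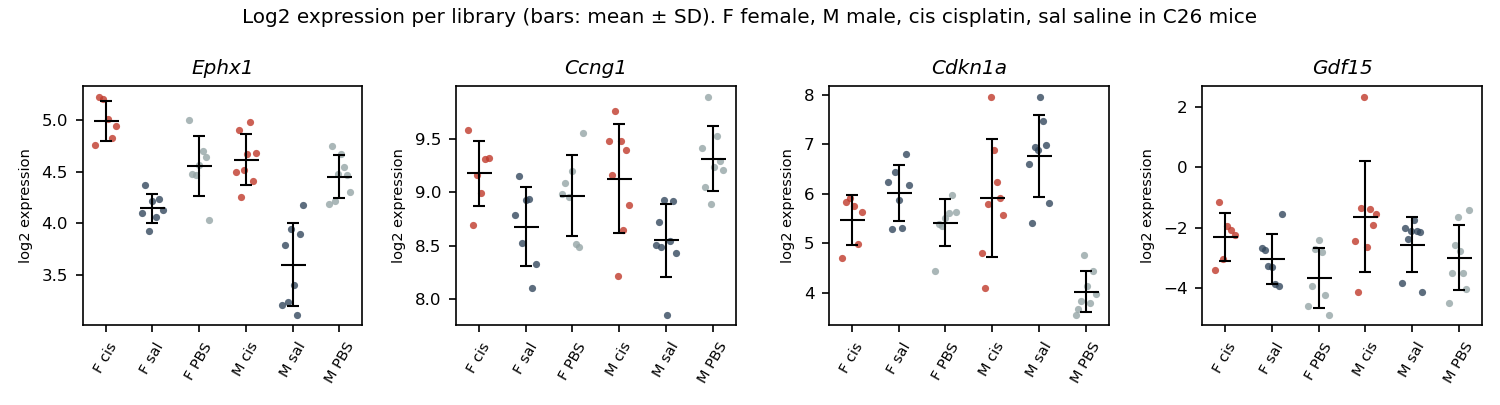
Log2 expression of Ephx1, Ccng1, Cdkn1a and Gdf15 in each library, by sex and group (C26 with cisplatin, C26 with saline, PBS); dots are libraries and bars are mean ± SD. The Ephx1 cisplatin libraries lie above the saline libraries of the same sex without overlap, and 1 male cisplatin library has a Gdf15 value of 2.35.

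Antioxidant, stress-response and growth genes that passed were mostly lower. Of 29 NRF2 and antioxidant genes 12 fell and 4 rose, with a median of -0.25. Gpx3, the secreted glutathione peroxidase, was 7.36, 7.98 and 8.88 at the lowest, median and highest under cisplatin, against 8.51, 9.14 and 9.87 under saline; 13 of 14 cisplatin libraries lay under every saline library, and the difference was -1.16 (SE 0.14, adjusted p = 4.07e-06). Nfe2l2, which encodes NRF2, fell by 0.72. Of 34 genes of the integrated stress and unfolded protein responses 11 fell and 0 rose, among them Xbp1 (-0.60) and the glutathione-degrading Chac1 (-1.54). Eif4ebp1, the translation repressor 4E-BP1, fell by 1.67 (SE 0.26, adjusted p = 8.39e-05), with 9 of 14 cisplatin libraries below every saline library. Myc fell by 0.95, and of 39 ribosome biogenesis and MYC genes 15 fell and 0 rose, with a median of -0.25. Of 78 cytosolic ribosomal protein genes 10 fell and 0 rose, a count that was 47 without the 3 libraries of high GC slope; 10 of 78 is near the share of all genes. Igf1 had a difference of -0.34 and did not pass.

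Blood and matrix genes changed in part. Of 13 haemoglobin and erythroid genes 8 fell and 3 rose, with a median of -0.88. The globins Hba-a1 (-0.97, adjusted p = 0.0118) and Hbb-b1 (-1.09) and the erythroid haem enzyme Alas2 (-1.06) fell, whereas Tfrc, the membrane anchor Ank1 and Bpgm rose. The paired globin genes are near copies and their split is uncertain. Of 29 collagen and matrix genes 10 fell and 0 rose, including Timp1 (-1.72), the crosslinking enzyme Lox (-1.29) and Col4a1 (-0.56). Of 23 neuromuscular junction and denervation genes 8 rose and 3 fell; the junctional esterase Ache rose by 0.96 and Runx1, which is induced by denervation, fell by 1.06. Of 28 endothelial markers 2 rose and 5 fell, of 16 fibroblast markers 2 fell, of 13 pericyte markers 0 passed and of 18 Schwann cell markers 1 fell; the last 3 counts are shares under the 15.5% of all genes. The circadian clock and output list of 20 genes had 3 rises and 3 falls, with a median of -0.004. Among the rises were the clock outputs Dbp (1.03) and Hlf (0.82), and the time of day of harvest is not given.

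**Figure D3:**
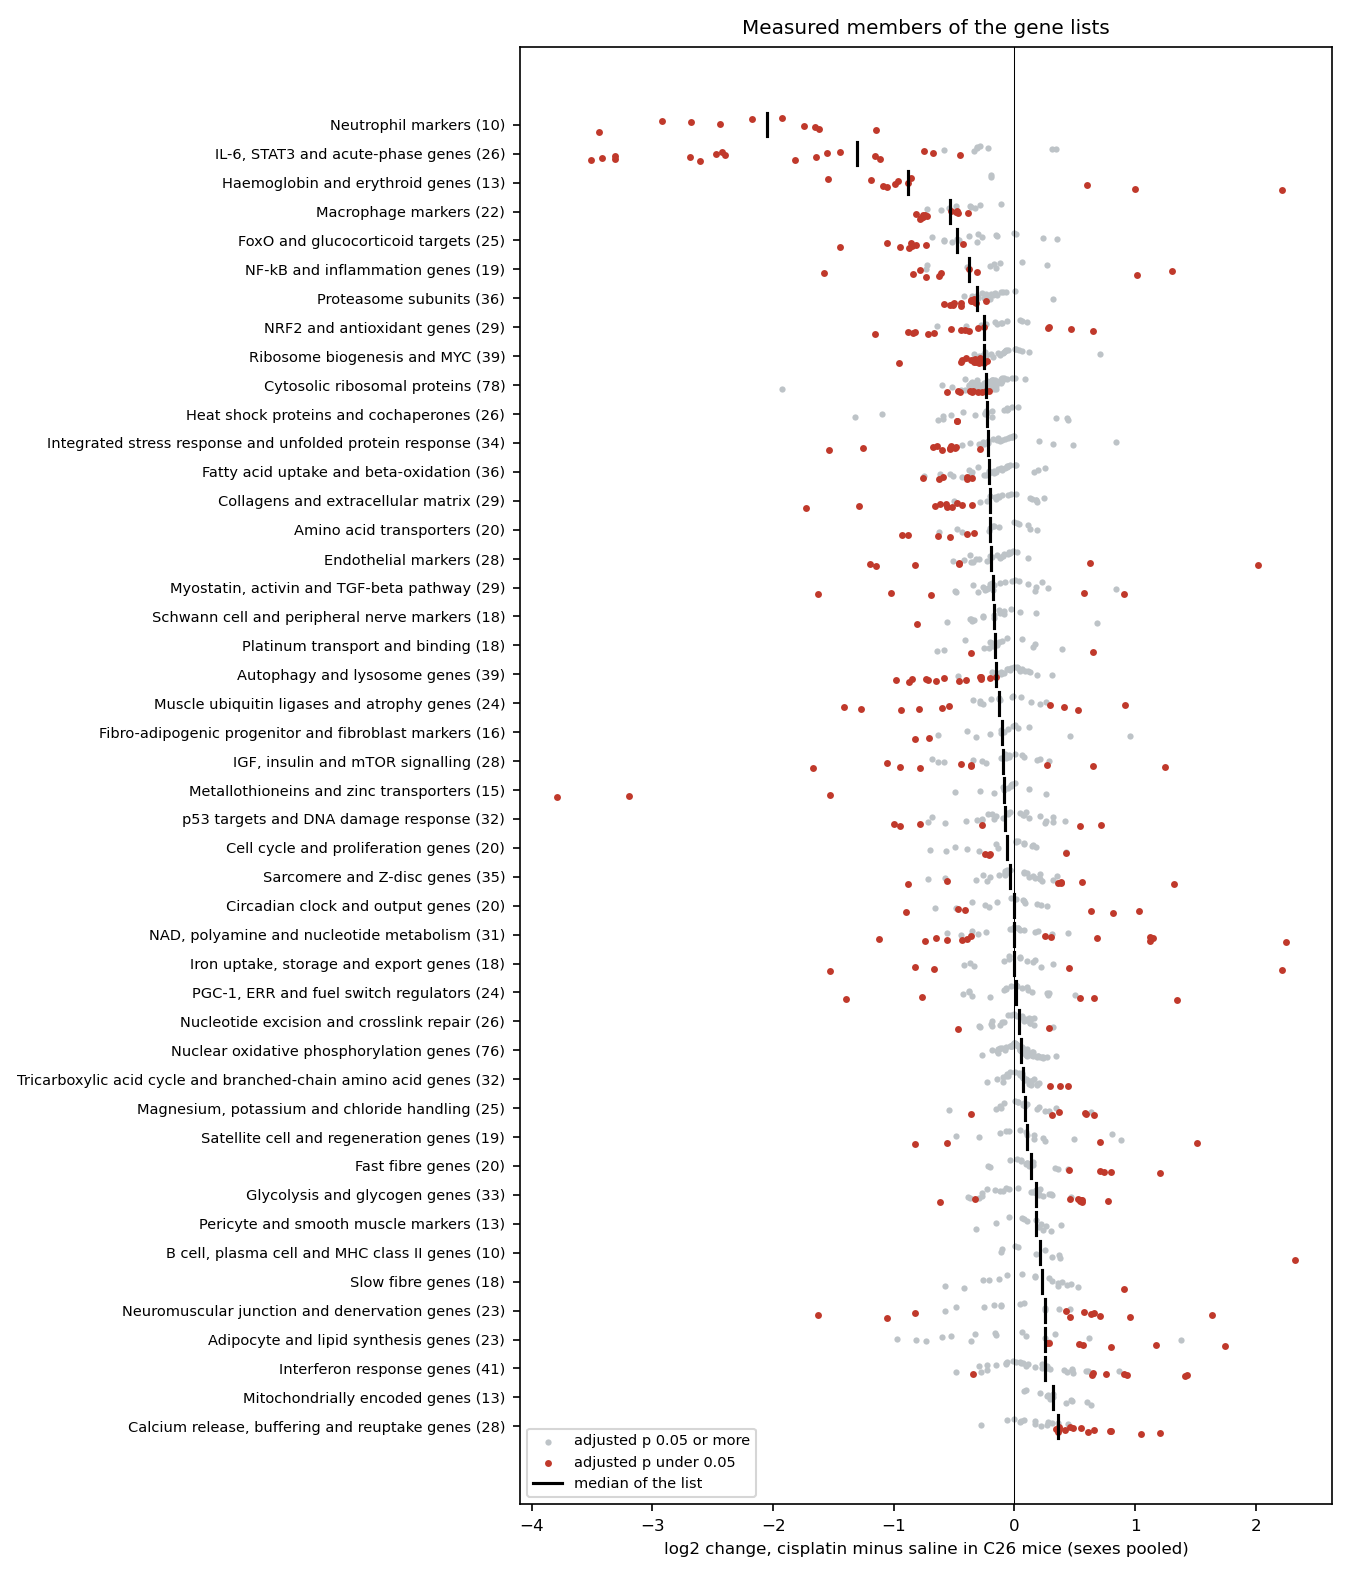
Log2 difference, cisplatin minus saline, of each measured member of the gene lists with at least 10 measured genes; each dot is a gene, red dots passed at an adjusted p under 0.05, and black marks are list medians. Neutrophil markers (median -2.05) and acute-phase genes (-1.30) lie farthest below 0, and calcium-handling genes (0.36) lie above it.

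In females alone 196 genes (1.41%) passed, 34 higher (0.245%) and 162 lower (1.17%). In males alone 1866 genes (13.5%) passed, 896 higher (6.47%) and 970 lower (7.00%). Of the genes called in females 108 were also called in males, which is 55.1% of the female and 5.79% of the male calls, and 0 were called in opposite directions. The difference between the sexes passed for 0 genes (0%); 2111 genes (15.2%) had an unadjusted p under 0.05 and the smallest adjusted p was 0.239. The female count was 71 without female cisplatin replicate 3 and 551 without male cisplatin replicate 4, which the shared fit includes. A smaller count in females is therefore no measured difference between the sexes.

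Acute-phase genes fell in both sexes, with 12 of 26 called lower in females and 19 in males. Neutrophil markers fell in 6 of 10 in females and 10 in males. Calcium-handling genes rose in 0 of 28 in females and 15 in males, and proteasome subunits fell in 0 of 36 in females and 21 in males. Over all genes 0.245% rose and 1.17% fell in females, so a count of 0 in females was near that share. In males 6.47% of all genes rose and 7.00% fell. Casq1 was higher by 0.62 in females (adjusted p = 0.290) and by 1.68 in males (adjusted p = 0.000555). Fbxo32 had differences of -1.28 in females (adjusted p = 0.116) and -1.27 in males (adjusted p = 0.0236). Chac1 and Lbp were among the 6 genes with the smallest p in females, Cxcl13 and Slc39a14 in males, and Serpina3n in both. The mitochondrially encoded share differed by 3.72 percentage points in females (exact permutation p = 0.0332, two-sided) and by 0.48 in males (exact permutation p = 0.838). GC slope differed by -0.16 in females (exact permutation p = 0.0507) and by 0.09 in males (exact permutation p = 0.436). The part of either measure in these counts, or of GC slope in the female share, was not tested.

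**Figure D4:**
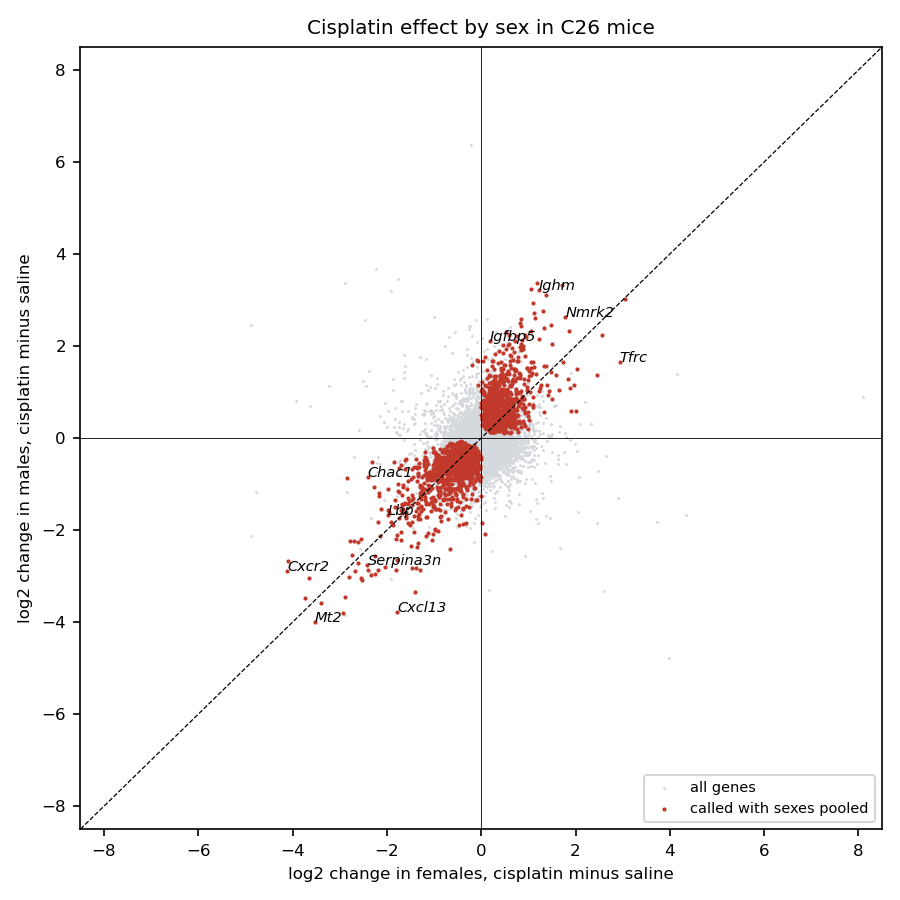
Log2 difference, cisplatin minus saline, of each gene in females (x axis) and males (y axis); red dots passed in the pooled fit. Of the 2142 red genes 2131 have the same sign in both sexes.

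Set directly against the other drugs in tumour hosts, cisplatin differed from 5-fluorouracil (16 libraries) in 0 genes (0%), and 1228 genes (8.86%) had an unadjusted p under 0.05. That number was 476 with GC slope in the model and 3210 without male cisplatin replicate 4, with 0 genes passing in both. The GC slope was above 0.1 in 2 of 8 female and 4 of 8 male 5-fluorouracil libraries. Ephx1 had the smallest p of the 5-fluorouracil comparison, with a difference of 0.43 and an adjusted p of 0.499. Mt2 differed by -0.56 and Lcn2 by -0.34 from 5-fluorouracil, neither past the test. Against paclitaxel (13 libraries) 1683 genes (12.1%) passed, 867 higher (6.26%) and 816 lower (5.89%), but 0 passed without the libraries of GC slope above 0.1, which numbered 6 of 13 in the paclitaxel groups and 2 of 14 in the cisplatin groups; 5222 genes (37.7%) had an unadjusted p under 0.05 with all libraries. Ephx1 again had the smallest p, at 0.78 (SE 0.10, adjusted p = 9.60e-06).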

How the data were processed

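Gastrocnemius RNA was isolated using TRIzol followed by a purification column, and 150-bp paired-end reads were taken, per the labels' protocols. The submitters' processing notes name FastQC, MultiQC, fastp, Salmon, edgeR, limma and the build mm39 (GRCm39), without versions. The deposited table holds log2 values per gene and library; from the values, each is the log2 of an estimated count plus 0.5 over a scaled library size, and 85.0% to 90.6% of the recovered counts in the compared libraries were whole within 0.02. The table was used as deposited, without further filtering or scaling. All adjusted p-values come from limma 3.58.1 (R 4.3.3) with a mean-variance trend, fitted on the 29 libraries with sex as a covariate (26 residual degrees of freedom) and adjusted by Benjamini-Hochberg over 13856 genes. Values within a sex and the difference between the sexes came from group means (25 residual degrees of freedom), and the comparisons with other drugs from the 8 tumour groups. Mitochondrial shares were compared by permutation within sex (100000 draws), exactly within 1 sex. The fit was tested on simulated data.

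The comparison and the 47 gene lists were chosen with earlier results of these data known. Named genes are the 12 largest called rises and falls whose mean log2 value was 1 or more, up to 4 per list with the smallest adjusted p, the 6 with the smallest p in each further comparison, and 20 fixed genes. Predicted gene models, by symbol, were left out of the largest rises and falls. Itih4, Saa3, Saa2, Il6ra, Il6st, Ctsl and Bpgm were named after their values were seen. Promoters were read on GRCm38.p6, which is not the build of the table. Of 75 labelled samples, 1 with conflicting labels was not placed in a group and 1 female PBS sample was not analysed here. All libraries carry the same batch label. The alternatives tried are in the closing section. A result for 1 gene is not reported here.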

Additional observations from a re-analysis of the deposited data

Results flagged for a closer look

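Of 92 values tested for 1 library standing apart from the others of its group, 8 were picked out, and chance picks out about 1 in 20. Male cisplatin replicate 4, the library with a GC slope of 0.55, stood apart in 3 genes. Its Gdf15 value was 2.35, with the nearest other male cisplatin library at -1.36. Its Hba-a1 value was 10.41, with the nearest at 8.76, and its Igf1 value was -0.48, with the nearest at 2.08. Without this library the pooled difference was 0.54 for Gdf15 (adjusted p = 0.275), -1.13 for Hba-a1 (adjusted p = 0.000741) and -0.11 for Igf1 (adjusted p = 0.741), by limma.

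Male saline replicate 4 also stood apart in 3 genes. Its Mt2 value was 6.60, with the nearest other male saline library at 8.15, its Stat3 value was 6.69, with the nearest at 7.55, and its Ighm value was 3.91, with the nearest at 1.14. Without it the pooled differences were -3.93 for Mt2, -1.18 for Stat3 and 2.53 for Ighm, and all of these passed (limma, adjusted p = 6.99e-08, 1.43e-06 and 0.000165).

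A GC slope of 0.45 set female saline replicate 7 apart from the other female saline libraries, the nearest of which was at 0.06. Male saline replicate 7 had 17.7% of its counts in mitochondrially encoded genes, with the nearest male saline library at 10.7%. No gene (0) had every library of a sex moving one way and every library of the other sex the opposite way.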

How the results depend on the processing

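No called difference of a named gene reversed its direction. The balance of higher and lower genes did turn in some counts. In males 1128 genes were higher and 882 lower with quantile normalization, against 896 and 970. Against paclitaxel 1 gene was higher and 33 were lower with the GC covariate, against 867 and 816. Some medians near 0 changed sign, for example that of all genes, which was 0.01 with quantile normalization, against -0.01, and that of the sarcomere list, which was 0.02 with quality weights, against -0.03. The pooled count of 2142 genes was 3932 with quality weights, 3860 with each library's GC slope in the model, 3540 without the 3 libraries whose slope passed 0.1 and 3701 without these and male saline replicate 4, the last chosen after seeing the data; the cause was not tested. Of the 2142 genes 2094 were among the 3540. In females (196) the count was 2165 with quality weights and 301 without the high GC libraries, in males (1866) it was 3150 with the GC covariate, and the difference between the sexes (0) gave 10 genes with quality weights. Against paclitaxel (1683) the count was 2803 with all libraries in the fit, 4974 with quality weights, 34 with the GC covariate and 0 without the high GC libraries, where limma gave 920 genes at an unadjusted p under 0.05. The mitochondrial share difference was 2.83 percentage points without the high GC libraries and 2.68 without male cisplatin replicate 4 (permutation p = 0.0248 and 0.04998, against 0.151).

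Same-numbered libraries did not deviate together: over 14 pairs their correlation was -0.20 to 0.24, with 5 above 0.1 and 2 libraries closest to their own number. The replicate block gave 2698 pooled calls, 209 in females, 2713 in males, 0 for the difference between the sexes, 0 against 5-fluorouracil and 1980 against paclitaxel. The replicate block with GC slope covariate gave 4275, 288, 4576, 364, 0 and 96 in that order.

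Leaving out 1 library at a time gave 1687 to 3122 pooled calls, 71 to 551 in females, 1184 (without male saline replicate 5) to 2508 in males, 0 to 7 for the difference between the sexes (7 without male saline replicate 4) and 203 to 4855 against paclitaxel. The mitochondrial share difference was 1.58 to 2.69. The female count was 100, 71, 74 and 88 without female cisplatin replicates 1, 3, 5 and 6, it was 110, 107, 320 and 77 without female saline replicates 1, 3, 4 and 6, and it was 551 without male cisplatin replicate 4. Against paclitaxel the lowest count came without male paclitaxel replicate 5 and the highest without male cisplatin replicate 4. Over all such fits 6306 of the named genes' values kept their status, whether called or not called, 122 lost a call and 68 gained one. Cdkn1a passed with quality weights (adjusted p = 0.0271), the replicate block (0.0153), the block with GC slope (0.00201), without the high GC libraries (0.0267), and without male saline replicate 2 (0.04995) or male cisplatin replicate 4 (0.0162). Genes near a count of 0 are limited by depth.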
